A study of Mus musculus with 2 samples.

Results

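The Gpr17-high cells of *Nf1*-OPG mouse optic nerves were chosen by the measured level of *Gpr17* itself, as the cells in which at least 2 *Gpr17* unique molecular identifiers (UMIs, 1 for each captured RNA molecule) and no *Ptprc* UMI were counted. After barcodes with fewer than 500 or more than 5000 genes, fewer than 500 or more than 20000 UMIs, or more than 5% mitochondrial UMIs were removed, 338 of 25652 cells met this rule, which is 1.32% (exact 95% interval 1.18 to 1.46%). The data are 2 single-cell RNA libraries, C-ON and FMC_new, made with a droplet kit that reads the 5′ end of transcripts. By the labels each suspension pooled optic nerves of 10 mice aged 12 weeks, and both libraries carry the genotype label NF1-OPG. In this model a germline-mutant *Nf1* allele is combined with a floxed *Nf1* allele that is deleted by Cre driven from the *GFAP* promoter, so that all other cells of the mouse keep 1 working copy. The title of C-ON adds the word control, which the labels do not explain, and both libraries were treated as the same genotype. No tumor-free nerve is among these libraries, so that whether a Gpr17-high cell is a glioma cell or a precursor cell of the nerve cannot be told apart.

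Oligodendrocyte precursor cells divide, carry the PDGF receptor *Pdgfra* and the proteoglycan NG2 (*Cspg4*), and give rise to the myelinating oligodendrocytes of the optic nerve. *Gpr17*, an orphan G protein-coupled receptor, is switched on as a precursor leaves the cell cycle and is switched off again before myelination, and forced expression of the receptor holds cells in the immature state. The same window is marked by *Bmp4*, a secreted ligand of the BMP pathway, *Enpp6*, a choline-releasing phosphodiesterase of newly formed oligodendrocytes, and *Neu4*, a sialidase that trims sialic acid from glycans.

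The Gpr17-high cells were not evenly distributed between the libraries. In C-ON, 49 of 8834 kept cells met the rule, 0.555% (0.411 to 0.733%), and in FMC_new 289 of 16818 did, 1.72% (1.53 to 1.93%). The intervals cover counting error only, and with 1 library each the difference has no replicate check. Gpr17-high cells had medians of 6197 and 6491 UMIs and of 3103 and 3127 genes, against 6811 and 4676 UMIs over all kept cells of C-ON and FMC_new. The files share 296 barcodes. These include the barcodes of 8 Gpr17-high cells, none of which met the rule in both libraries. A doublet caller, scrublet, marked 1 of 25652 cells and had therefore not worked, so results are also given without the 6% of cells with the highest scores in each library, which hold 21 of the 338 cells. In FMC_new the pituitary hormone gene *Gh* was found in all 289 Gpr17-high cells and in 99.9% of T cells, whereas none of the 49 Gpr17-high cells of C-ON had a UMI, where 3 counts would be 6.12%. Its transcripts were thus found in FMC_new in cells that should lack them, and T cells (at least 2 UMIs of *Cd3d*, *Cd3e* and *Cd3g* together and a *Ptprc* UMI) are used below as cells that should lack oligodendrocyte genes.

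*Gpr17* itself was used to choose the cells and is given as a description. Its lowest, median and highest UMI numbers per cell were 2, 3 and 14 for C-ON, with 2, 3 and 50 for FMC_new. Just inside the rule lie 136 cells with exactly 2 UMIs, and just outside lie 320 *Ptprc*-free cells with 1 UMI, with median depths of 5882 and 5364 UMIs. At the upper end, 23 cells with at least 10 UMIs held 28.2% of the 1499 *Gpr17* UMIs of the class. Another 38 kept cells had at least 2 *Gpr17* UMIs together with a *Ptprc* UMI and are not members, and 34 barcodes that otherwise met the rule were removed by the upper limits on genes or UMIs. *Gpr17* lies inside *Lims2* on the opposite strand. How the counting treats reads of this overlap was not examined, and *Lims2* is not tested.

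**Figure D1:**
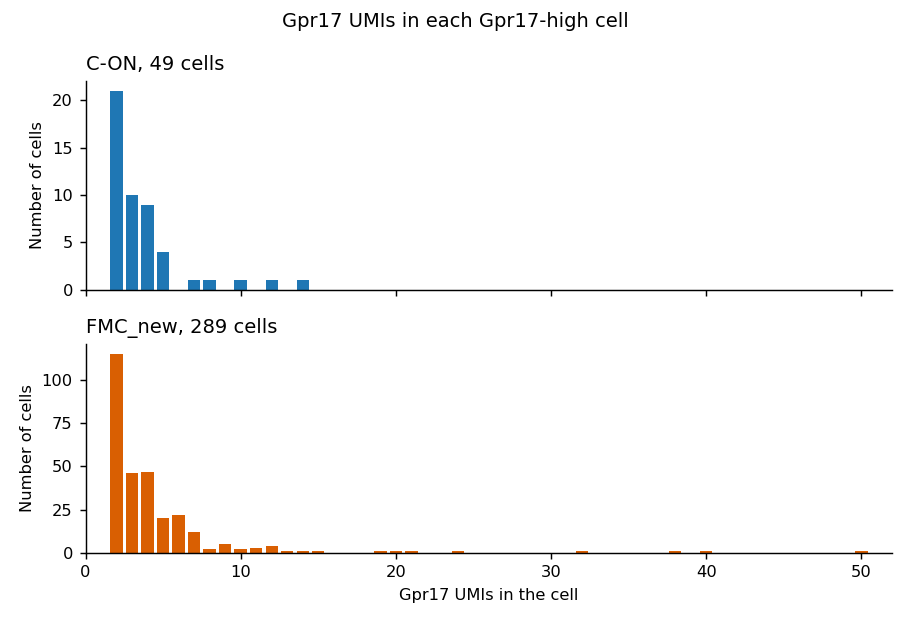
Number of Gpr17-high cells (vertical axis) at each count of *Gpr17* UMIs per cell (horizontal axis), in C-ON (upper panel, 49 cells) and FMC_new (lower panel, 289 cells). In both libraries most cells sit near the lower limit of 2 UMIs, and the cells with 15 or more UMIs are from FMC_new.

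The label of committed precursors held for only part of the class. *Neu4* (GRCm38 chromosome 1, 94020451 to 94028334, plus strand) was found in 89.8% (77.8 to 96.6%) of the Gpr17-high cells of C-ON and in 88.2% (83.9 to 91.7%) of those of FMC_new. In T cells its share was 0.325% and 1.87%. *Neu4* was thus present in nearly all Gpr17-high cells and close to absent from the cells that should lack it. It was also found in 77.3% and 75.7% of the precursor-like cells without *Gpr17* that are defined below.

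The other commitment markers were found in a minority. *Bmp4* (chromosome 14, 46383520 to 46390669, minus strand) was found in 3 of 49 Gpr17-high cells in C-ON (6.12%, 1.28 to 16.9%) and in 42 of 289 in FMC_new (14.5%, 10.7 to 19.1%). Among T cells *Bmp4* was found in none of 924 (3 counts would be 0.325%) and in 0.320% of 3745. *Enpp6* (chromosome 8, 46986887 to 47096762, plus strand) was found in 18.4% (8.76 to 32.0%) and 12.8% (9.18 to 17.2%) of the cells, against 9.74% and 3.36% of T cells at median depths of 3961 and 3640 UMIs. Without the cells of high doublet score *Enpp6* was found in 4 of 42 cells in C-ON (9.52%, 2.66 to 22.6%) and in 33 of 275 in FMC_new (12.0%, 8.41 to 16.4%). The share in C-ON was no higher than that of the T cells there, from which 107 cells of high score were not left out. The 4 cells held 62 *Enpp6* UMIs (234 CPM over the 42 cells). At least 1 of *Bmp4* and *Enpp6* was found in 22.4% and 22.5% of the Gpr17-high cells, against 21.2% and 7.05% of the precursor-like cells without *Gpr17*, and both in 15 of 338 cells.

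The receptor and proteoglycan of the precursor state were present in most of the same cells. *Pdgfra* (chromosome 5, 75152292 to 75198215, plus strand) was found in 87.8% (75.2 to 95.4%) of the cells in C-ON and 85.1% (80.5 to 89.0%) in FMC_new, and *Cspg4* in 73.5% and 76.5%. *Pdgfra* and *Neu4* were found together in 265 of the 338 cells (78.4%), and neither *Pdgfra* nor *Cspg4* in 33 (9.76%). Of the 24 genes on the list of oligodendrocyte precursor genes, 21 were found in at least 50% of the Gpr17-high cells of either library. The highest CPM (UMIs of a gene per 1000000 UMIs of the class in a library, not corrected for transcript length because each UMI is the 5′ end of 1 molecule) among them were those of *Lhfpl3*, 2424 and 2458 CPM, *Ptprz1*, a receptor phosphatase, 2171 and 1910 CPM, and *Cspg5*, 2131 and 1994 CPM, in C-ON and FMC_new.

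The lineage factors *Olig1*, *Olig2* and *Sox10*, which specify the oligodendrocyte lineage, were found in 85.7 to 100% of Gpr17-high cells in either library, against at most 16.3% of T cells. Markers of T cells were low, while some lists of other cells were not. Of the 10 T cell genes none was found in 10% of Gpr17-high cells, and their summed level was 12.5 CPM in C-ON and 51.6 CPM in FMC_new. The astrocyte list summed to 910 and 982 CPM, with *Gfap*, the intermediate filament of astrocytes, in 6.12% and 17.0% of cells. The pituitary list summed to 62.3 CPM in C-ON and 9431 CPM in FMC_new, the plasma and B cell list to 2003 and 1044 CPM, the Schwann cell list to 692 and 809 CPM, the fibroblast list to 554 and 153 CPM, and the erythrocyte list to 24.9 and 874 CPM. The neuron list summed to 137 and 166 CPM, the microglia and macrophage list to 96.6 and 279 CPM, and the endothelial and mural list to 12.5 and 3.86 CPM. All 178 fibroblast UMIs of C-ON were of *Apod*, which is also on the list of myelin genes. In FMC_new 1 cell held 87.4% of the erythrocyte UMIs, and 1 cell held 36.0% of the pituitary UMIs. In T cells the astrocyte list summed to 33.9 and 101 CPM, the pituitary list to 6.04 and 10238 CPM, and the fibroblast list to 952 and 561 CPM. The part of RNA from other cells in the results was not tested. The class is called Gpr17-high below, without the word committed.

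**Figure D2:**
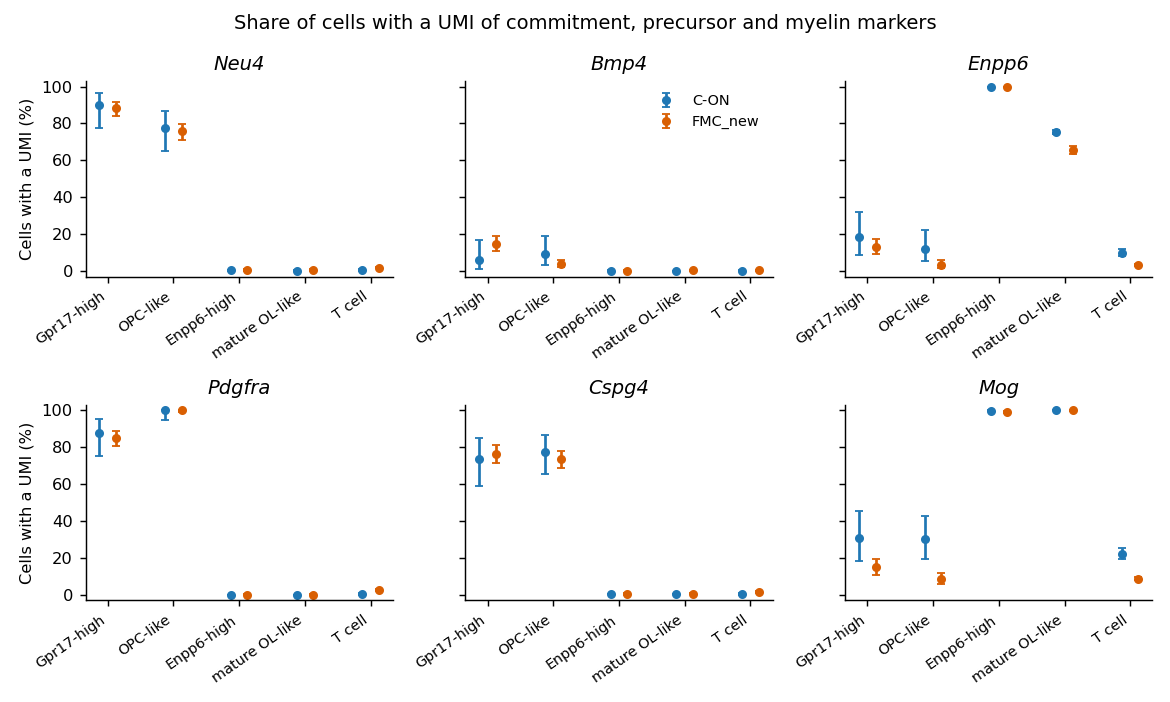
Share of cells with a UMI (percent, with exact 95% intervals) of 6 genes in the Gpr17-high, OPC-like, *Enpp6*-high, mature OL-like and T cells of C-ON (blue) and FMC_new (orange). *Enpp6*-high cells have at least 2 *Enpp6* UMIs, an *Olig1*, *Olig2* or *Sox10* UMI and no *Gpr17*, *Pdgfra* or *Ptprc* UMI, and OPC-like and mature OL-like cells are defined in the text. *Neu4*, *Pdgfra* and *Cspg4* are found in most Gpr17-high cells, while *Bmp4* and *Enpp6* are found in fewer than 20% of them; genes that define a class are at or near 100% in it by construction.

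To find what goes with *Gpr17* in cells of the precursor kind, Gpr17-high cells were compared with oligodendrocyte precursor-like (OPC-like) cells, which have at least 2 *Pdgfra* UMIs, an *Olig1* or *Olig2* UMI, and no UMI of *Gpr17*, *Ptprc* or *Dcn* (66 cells in C-ON, 383 in FMC_new, median depths of 5287 and 6343 UMIs). UMIs were summed per library and class, which gives 2 sums per class. With edgeR's quasi-likelihood test and library as a term, 109 genes (0.989% of 11017 tested) were higher and 96 (0.871%) lower in Gpr17-high cells at a Benjamini-Hochberg adjusted p under 0.05, together 1.86%. In 199 of these 205 genes the change had the same direction in both libraries. DESeq2 called 27 genes higher (0.245%) and 13 lower (0.118%), together 0.363%, and all 40 were among the 205. Nothing in the labels says that the libraries differ by litter or day, so the p-values measure no spread beyond these 2 libraries. Each gene has 1 residual degree of freedom, and its dispersion is drawn towards a trend over all genes, on which the p-values rest in part. Genes used to define either class are not counted.

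Genes of committed and differentiating precursors were higher as a group under these class rules. Of 19 tested, 15 rose (78.9%, against 0.989% of all genes) and none fell, with a median log2 fold change of 1.67 against 0.00 over all genes. DESeq2 called 7 of them higher and gave no adjusted p for *Bmp4*, *Kif19a*, *Rras2*, *Mycl* and *Cnksr3*. The comparator needs at least 2 *Pdgfra* UMIs and Gpr17-high cells need none, so that cells without *Pdgfra* enter only the Gpr17-high class. With at least 2 *Pdgfra* UMIs in both classes, 2 of 18 were called higher and 2 lower (2.88% of all genes called), with a median of 0.21. *Neu4* was at 533 CPM in the Gpr17-high and 349 CPM in the OPC-like cells of C-ON, and at 586 and 310 CPM in FMC_new. Its log2 fold change was 0.75 ± 0.15 (SE, edgeR adjusted p = 0.0382), in the same direction in both libraries, and DESeq2 did not call it (adjusted p = 0.137).

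*Enpp6* was at 218 and 49.5 CPM in C-ON and at 226 and 16.9 CPM in FMC_new, higher in Gpr17-high cells in both, with a log2 fold change of 3.22 ± 0.30 (edgeR adjusted p = 0.00121). *Bmp4* was at 28.0 and 15.6 CPM in C-ON and at 53.5 and 5.91 CPM in FMC_new, with a log2 fold change of 2.64 ± 0.43 (edgeR adjusted p = 0.0155). In C-ON 7 of its 9 UMIs came from 1 Gpr17-high cell, the share of cells with a UMI was lower than in OPC-like cells (6.12% against 9.09%), and the ratio of levels was 1.79 with a counting interval of 0.570 to 6.12. In FMC_new the ratio was 9.06 (5.26 to 16.7). DESeq2 gave no adjusted p for *Bmp4*, and without the 23 cells of at least 10 *Gpr17* UMIs its log2 fold change was 1.56 ± 0.48 and no longer called (edgeR adjusted p = 0.0935).

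The other members of the list that rose include *Sirt2*, a tubulin deacetylase of oligodendrocytes, at 1012 against 370 CPM in C-ON and 1198 against 256 CPM in FMC_new. *Bcas1*, a marker of early myelinating cells, was at 1012 against 328 CPM and 1072 against 435 CPM, and *Fyn*, a kinase that acts in process outgrowth and myelination, at 383 against 162 CPM and 487 against 143 CPM. Their log2 fold changes were 1.85 ± 0.19, 1.39 ± 0.14 and 1.54 ± 0.17. *Kif19a*, a kinesin gene, had 6 UMIs in Gpr17-high cells against none in OPC-like cells in C-ON. Against a floor of 3 counts in the library the ratio was 2.39, and the lower end of the counting interval was 1.41. In FMC_new *Kif19a* had 79 UMIs against 1, a ratio of 96.7 with a counting interval of 16.9 to 3867. *Gpr37*, *Ptprn*, *Arpc1b* and *Fam107b* of the same list did not pass the test.

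Of 18 lineage transcription factors tested, 4 rose and 1 fell, against 0.989% and 0.871% of all genes. *Myrf*, the activator of myelin genes, was at 62.3 against 41.7 CPM in C-ON and 70.9 against 21.3 CPM in FMC_new (log2 fold change 1.41 ± 0.27, edgeR adjusted p = 0.0314). *Tcf7l2*, a Wnt effector needed for differentiation, was at 74.8 against 49.5 CPM and 160 against 40.2 CPM (1.67 ± 0.26, edgeR adjusted p = 0.0132), and *St18* and *Sox8* rose too. *Id2*, an inhibitor of basic helix-loop-helix factors, was at 77.9 against 180 CPM and 123 against 311 CPM, lower in Gpr17-high cells in both libraries (-1.35 ± 0.16, edgeR adjusted p = 0.00434). Its relative *Id3* fell as well. With at least 2 *Pdgfra* UMIs in both classes, *Sox8* was the 1 lineage factor called higher and *Id2* the 1 called lower. In the list of BMP, Wnt and Notch pathway genes, 3 of 23 rose (*Bmp4*, *Tcf7l2* and the Notch ligand *Dll1*) and 2 fell (*Id2* and *Id3*), against the same shares of all genes, with a median of -0.03.

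Cell cycle genes were lower. Of 19 tested, 8 fell and none rose (0.871% of all genes fell), with a median log2 fold change of -1.49, and DESeq2 called 1 of them. Among the 8, DESeq2 gave no adjusted p for *Top2a*, *Birc5*, *Cenpf*, *Tpx2* and *Cdca8*. *Cenpf*, a centromere protein, was at 3.12 against 28.7 CPM in C-ON and 11.1 against 70.1 CPM in FMC_new (log2 fold change -2.73 ± 0.28, edgeR adjusted p = 0.00176). *Top2a*, the topoisomerase of dividing cells, was at 24.9 against 41.7 CPM and 16.9 against 82.0 CPM (-2.06 ± 0.30, edgeR adjusted p = 0.00960). *Ccnd1*, cyclin D1, which drives entry into the cycle and is a target of RAS signaling, was the 1 of 25 genes on the RAS and MAPK feedback list that fell, against 0.871% of all genes. Its level went from 1131 to 723 CPM in C-ON and from 1563 to 719 CPM in FMC_new (-0.96 ± 0.15, edgeR adjusted p = 0.0132).

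The cell cycle UMIs came from few cells. In FMC_new, 4 of 289 Gpr17-high cells (1.38%, 0.378 to 3.51%) and 29 of 383 OPC-like cells (7.57%, 5.13 to 10.7%) had at least 10 UMIs of the list, and these held 57.8% and 81.9% of its UMIs. In C-ON the shares were 3 of 49 (6.12%, 1.28 to 16.9%) and 2 of 66 (3.03%, 0.369 to 10.5%), which lie in the other order, and a difference was not detectable with these cell numbers. These cells of C-ON held 57.7% and 65.7% of the UMIs of the list. There 1 OPC-like cell held 92 of the 248 UMIs of its class, so that the fall in C-ON rests on few comparator cells. *Mki67* was found with up to 24 UMIs in a cell of FMC_new and in no Gpr17-high cell of C-ON.

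**Figure D3:**
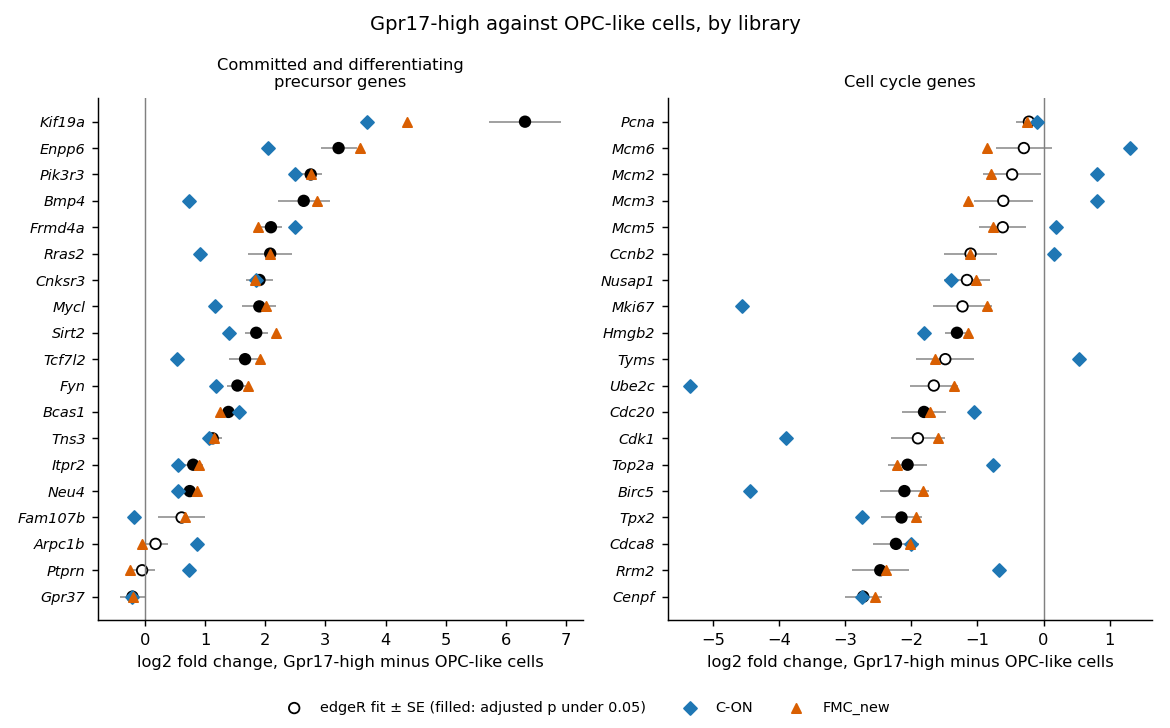
log2 fold change, Gpr17-high minus OPC-like cells (horizontal axis), of each tested gene on the list of committed and differentiating precursor genes (left) and of cell cycle genes (right). Black points are the edgeR fit with its SE, filled where the adjusted p is under 0.05, and diamonds (C-ON) and triangles (FMC_new) are the folds within each library. The 15 filled genes on the left are at or above 0 in both libraries; several cell cycle genes in C-ON rest on a handful of UMIs, and the fitted value of *Kif19a*, with 1 UMI in OPC-like cells, is no bound.

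Most precursor genes did not pass the test. Of 23 tested 3 rose and none fell, against 0.989% and 0.871% of all genes, with a median of 0.17. *Tnr*, tenascin R, a matrix protein of precursors, was at 1785 against 928 CPM in C-ON and 1541 against 813 CPM in FMC_new (log2 fold change 0.89 ± 0.13, edgeR adjusted p = 0.00922), and *Bcan*, brevican, and *Susd5* rose too. Myelin genes did not move one way, since 3 of 20 rose (*Cnp*, *Cldn11*, *Ptgds*) and 4 fell (*Trf*, *Apod*, *Anln*, *Klk6*), against the same shares. None of 17 growth factor and G protein-coupled receptors, 22 ion channel and glutamate receptor genes, 21 sterol and myelin lipid genes or 19 interferon and antigen presentation genes passed the test with edgeR or DESeq2, and 2, 7, 6 and 14 of them had an unadjusted edgeR p under 0.05, against 1264 of all 11017 genes (11.5%). The median of the interferon list was -0.56. The count of 0 for this list depended on the cells used, since 10 of its 19 genes were called lower without the highest doublet scores, where 4.69% of all genes were called in either direction. The count was also 10 with fewer than 10 *Gpr17* UMIs (2.82% of all genes called) and with at least 2 *Pdgfra* UMIs in both classes (2.88%), and 3 in members with a *Pdgfra* UMI (1.17%). *B2m*, *H2-K1*, *H2-D1* and *Cd74*, which act in antigen presentation, were among the 10 in each case. Without the highest doublet scores 2 ion channel and 3 sterol genes were called higher, and with fewer than 10 *Gpr17* UMIs 1 ion channel gene was. Among 16 sialic acid genes *Neu4* was the 1 that rose, and none fell, against 0.989% and 0.871% of all genes. Among 10 tested paracrine factors described for optic glioma, against 0.871% of all genes, *Ccl2*, a monocyte chemokine, fell (24.9 against 141 CPM in C-ON, 7.23 against 17.7 CPM in FMC_new), on 8 and 15 UMIs in Gpr17-high cells. Without the highest doublet scores its log2 fold change was -1.32 ± 0.49 and no longer called (edgeR adjusted p = 0.124), and DESeq2 gave no adjusted p. Cytoskeleton genes gave 4 of 24 higher (*Fyn*, *Tns3*, *Map1b*, *Dpysl2*) and *Stmn1* lower, against 0.989% and 0.871% of all genes. In members with a *Pdgfra* UMI, 0 of the 24 were called higher and *Tubb3* lower (1.17% of all genes called). With at least 2 *Pdgfra* UMIs in both classes, 0 were called higher, and *Stmn1* and *Tubb3* lower (2.88%).

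Over all genes tested, the largest rises among those found in at least 20% of Gpr17-high cells were those of *Pik3r3*, *Chn2*, *Frmd4a*, *Mink1*, *Mycl*, *Rnd2*, *Sirt2*, *Kank1*, *Mpzl1* and *Sema5a*, with log2 fold changes of 2.76 to 1.74. *Chn2*, a GTPase-activating protein for Rac, was at 224 against 67.8 CPM in C-ON and 232 against 33.9 CPM in FMC_new. *Rnd2* was at 458 against 162 CPM and 494 against 114 CPM. *Sema5a*, a semaphorin guidance protein, was at 268 against 110 CPM and 230 against 56.3 CPM. All 10 were higher in both libraries, which the rule that named them required. Here too, cells without *Pdgfra* enter only the Gpr17-high class. Those of the 10 that are also on the committed list were no longer called in members with a *Pdgfra* UMI. Their log2 fold changes were then 0.75 for *Pik3r3*, 0.59 for *Frmd4a*, 1.13 for *Mycl* and 0.53 for *Sirt2* (edgeR adjusted p = 0.223, 0.165, 0.148 and 0.289). The largest falls by the same rule were those of *Apod*, *Igkc*, *Fxyd7*, *Bag3*, *Id2*, *Hmgb2*, *Oxr1*, *Mt1*, *Lgals1* and *Tnfaip6*, from -1.61 to -1.14.

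Some calls moved with genes of other cells. Immunoglobulin genes made up 15 of the 96 genes that fell and none of those that rose. How many of them were tested was not counted, so that their share cannot be set beside that of all genes. Summed over 380 immunoglobulin genes, Gpr17-high cells had 10429 CPM and OPC-like cells 23174 CPM in C-ON, and 6065 and 12746 CPM in FMC_new. The highest OPC-like cell held 7379 of these UMIs in C-ON and 7655 in FMC_new, while medians per cell were alike (5 and 6.5 UMIs, 37 and 38 UMIs). *Hbb-bs*, a globin gene, was called higher with 88.4% of its UMIs in 1 Gpr17-high cell of FMC_new and had the opposite sign in C-ON, as did the pituitary gene *Pomc*. Without the highest doublet scores *Hbb-bs* was no longer called (log2 fold change 0.43 ± 0.25, edgeR adjusted p = 0.517). The part of these cells' RNA in the calls was not tested.

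The Gpr17-high cells were not uniform. In 289 of them a *Pdgfra* UMI was found, and in 49 (6 in C-ON, 43 in FMC_new) it was not. Median depths with and without *Pdgfra* were 6395 and 5728 UMIs in C-ON, and 6473 and 7775 UMIs in FMC_new. This split was chosen after the values were seen, and the values below are a description. *Enpp6* was at 28.4 CPM in cells with *Pdgfra* and 1592 CPM in cells without it in C-ON, and at 59.0 and 1012 CPM in FMC_new. *Bmp4* was at 7.09 and 180 CPM in C-ON and at 18.7 and 218 CPM in FMC_new. *9630013A20Rik* (chromosome 14, 84458639 to 84476424, minus strand), annotated as antisense, lies within *Pcdh17* on the other strand. How the counting treats reads of this overlap was not examined. *9630013A20Rik* was at 14.2 and 770 CPM and at 42.1 and 1006 CPM. All 3 genes were at higher levels in cells without *Pdgfra* in both libraries, and the *Enpp6* level of C-ON cells with *Pdgfra* lay under that of the T cells there. In C-ON all 8 *Enpp6* UMIs of cells with *Pdgfra* came from 5 of the 7 cells with high doublet scores, and the other 36 cells had none, where 3 counts would be 8.33% of cells. In FMC_new, 94 UMIs (58.1 CPM) were left without such cells.

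Other genes of differentiation showed the same order. *Sirt2* was at 473 CPM in cells with *Pdgfra* and 4648 CPM in cells without it, over both libraries, *Fyn* at 227 and 1693 CPM, *Tcf7l2* at 70.7 and 533 CPM, and *Myrf* at 33.1 and 251 CPM. Some genes, chosen after their values were seen, lay the other way. *Cspg5* was at 2389 and 139 CPM, *Ccnd1* at 850 and 67.2 CPM, *Etv5*, a transcription factor induced by MAPK signaling, at 176 and 4.98 CPM, and *C1ql1*, a complement-like secreted protein of precursors, at 671 and 137 CPM. *Neu4* differed less, with 612 CPM in cells with *Pdgfra* and 416 CPM in cells without it, and was found in 34 of the 49 cells that had no *Pdgfra* UMI. *Sox10* was at 538 and 670 CPM.

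Transcripts of *Mog* need the level in T cells beside them. *Mog*, a late myelin gene, was at 280 and 54.4 CPM in cells with *Pdgfra*, against 321 and 87.9 CPM in T cells, and at 257 and 452 CPM in cells without it. In cells with *Pdgfra* it was thus no higher than in T cells, and in cells without it *Mog* was above T cells in FMC_new alone. In C-ON, 74 of the 79 *Mog* UMIs of cells with *Pdgfra* came from 6 cells with high doublet scores. Without such cells *Mog* was at 22.1 CPM in C-ON and 34.6 CPM in FMC_new in cells with *Pdgfra*, and at 257 and 466 CPM in cells without it, so that it was then higher in cells without *Pdgfra* in both libraries. Of the 49 cells without *Pdgfra*, 3 were among the 21 with high doublet scores.

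**Figure D4:**
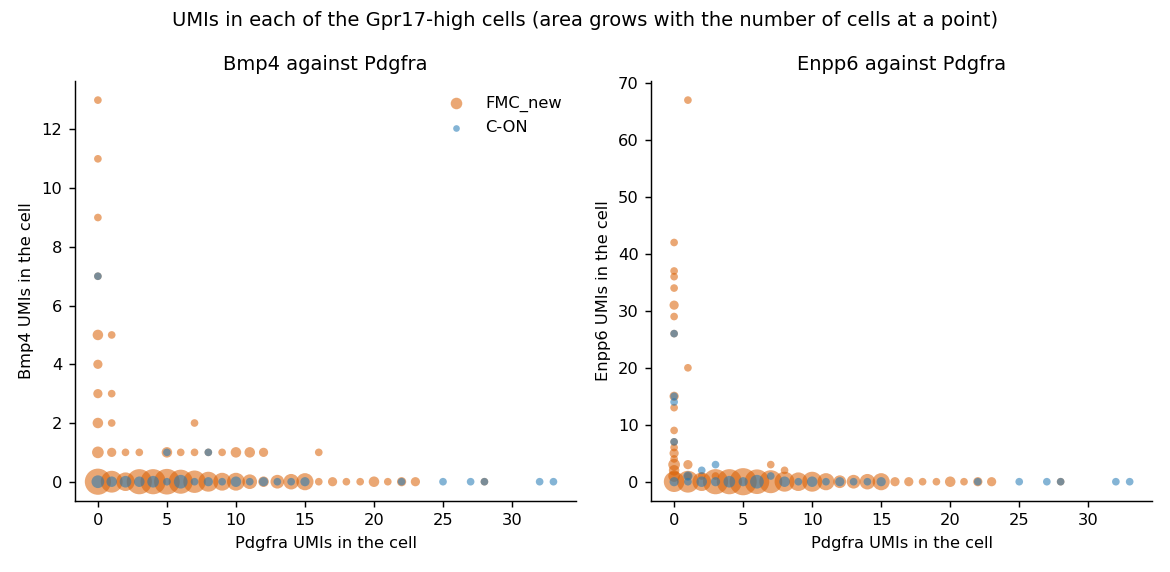
UMIs of *Bmp4* (left) and *Enpp6* (right) against UMIs of *Pdgfra* in each of the 338 Gpr17-high cells, with C-ON in blue and FMC_new in orange and a larger point where more cells coincide. Counts of at least 5 *Enpp6* UMIs, in 22 cells, occur only at 0 or 1 *Pdgfra* UMIs.

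Within the 49 cells without *Pdgfra* the markers of commitment were mixed. *Bmp4* without *Enpp6* was found in 6 cells, all from FMC_new, *Enpp6* without *Bmp4* in 19, both in 13, and neither in 11. All 22 Gpr17-high cells with at least 5 *Enpp6* UMIs had at most 1 *Pdgfra* UMI, and all 14 with at least 10 UMIs of *9630013A20Rik* had an *Enpp6* UMI. Of the 9 cells with at least 15 *Gpr17* UMIs, all from FMC_new, 8 had a *Bmp4* UMI and 8 had at most 1 *Pdgfra* UMI.

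The rise of the commitment genes against OPC-like cells was mostly lost when the cells without *Pdgfra* were left out. With only the 289 Gpr17-high cells that have a *Pdgfra* UMI, 25 of 10687 tested genes rose and 100 fell, together 1.17%. Of 18 tested genes of the committed list 2 rose (11.1%), *Neu4* (log2 fold change 0.81 ± 0.15, edgeR adjusted p = 0.0168) and *Bcas1* (0.93 ± 0.15, edgeR adjusted p = 0.00859). *Enpp6* had 1.14 ± 0.38 (edgeR adjusted p = 0.285) and *Bmp4* 1.06 ± 0.51 (edgeR adjusted p = 0.56). When both classes had at least 2 *Pdgfra* UMIs, *Enpp6* reversed to -1.63 and was called lower. The fall of cell cycle genes was kept, with the same 8 of 19 genes lower in the cells with *Pdgfra* (42.1%, against 1.17% of all genes called). *Id2* and *Ccnd1* fell there too.

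Levels also went with the number of *Gpr17* UMIs, which is part of the rule and goes with cell depth (medians of 5882 UMIs in cells with 2 *Gpr17* UMIs and 8073 in those with at least 10). Over OPC-like cells and cells with 1, 2, 3 to 4, 5 to 9 and at least 10 *Gpr17* UMIs, *Bmp4* was at 7.19, 9.72, 8.22, 18.1, 56.4 and 310 CPM, so that its level was low up to 4 UMIs and highest in the last 23 cells. *Neu4* went from 315 to 803 CPM by steps in the same order, and *Enpp6* from 21.2 to 798 CPM. *Fyn* was at 145, 176, 223, 364, 524 and 1701 CPM. *Ccnd1* was at 1507, 945, 1033, 689, 439 and 310 CPM. *Pdgfra* was found in 85.3%, 90.2%, 89.6% and 52.2% of the 4 groups of Gpr17-high cells. In C-ON the last 2 groups hold 6 and 3 cells, so that these levels mainly describe FMC_new.

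**Figure D5:**
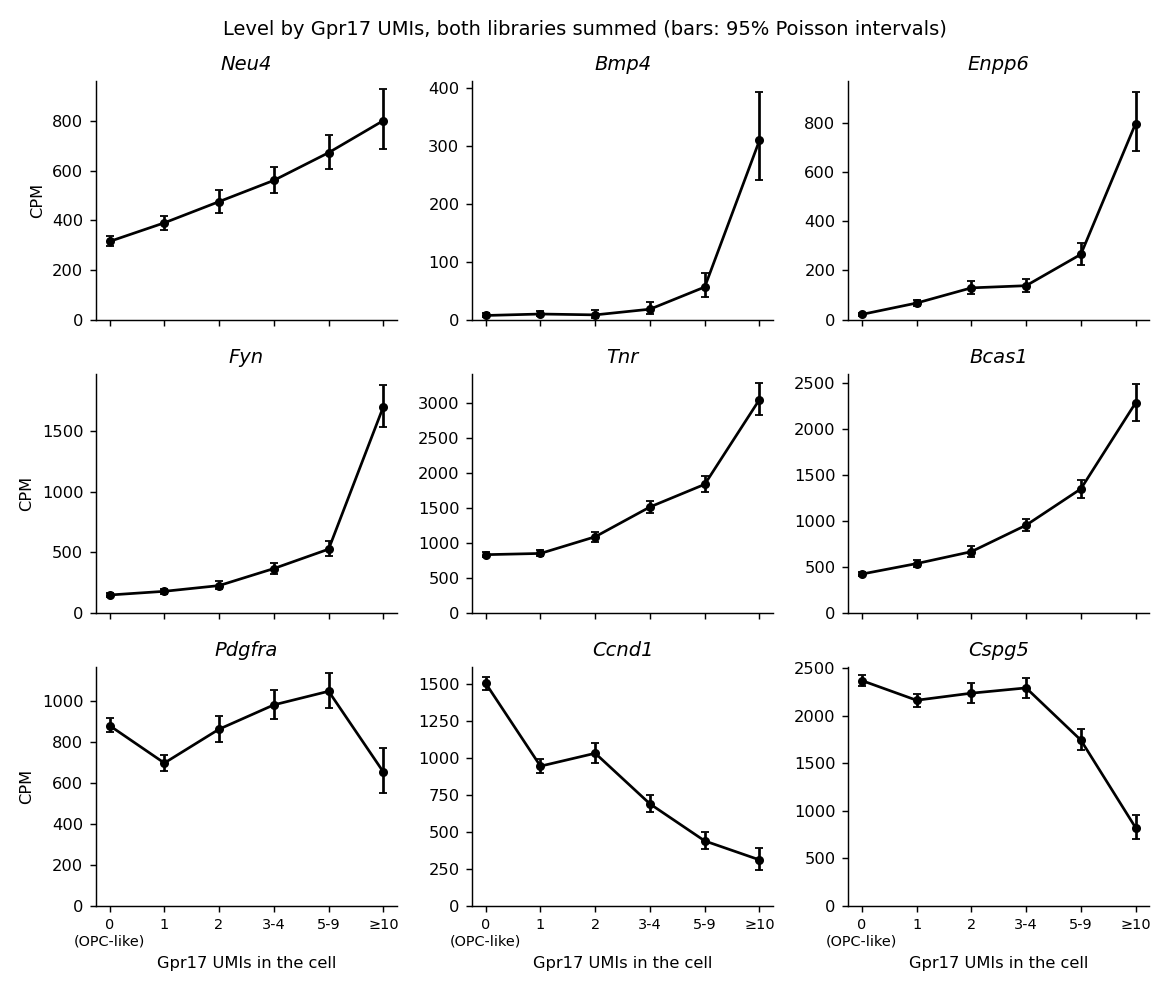
Level (CPM, both libraries summed, with 95% Poisson intervals that cover counting error only) of 9 genes in OPC-like cells (0 *Gpr17* UMIs) and in *Ptprc*-free cells with 1, 2, 3 to 4, 5 to 9 and at least 10 *Gpr17* UMIs. *Bmp4* and *Enpp6* are highest in the 23 cells with at least 10 UMIs, and *Ccnd1* and *Cspg5* are lowest there.

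Against the myelinating end of the lineage the Gpr17-high cells differed in much of the transcriptome. Mature oligodendrocyte-like (OL-like) cells have at least 2 *Mog* UMIs and no UMI of *Gpr17*, *Pdgfra* or *Ptprc* (5594 cells in C-ON, 2216 in FMC_new). Of 14170 genes tested, 43.7% were called by edgeR's quasi-likelihood test, 3055 (21.6%) higher and 3134 (22.1%) lower in Gpr17-high cells. DESeq2 called 29.5%, of which 2358 (16.6%) higher and 1826 (12.9%) lower. All 23 tested precursor genes rose and all 19 tested myelin genes fell, by medians of 7.09 and -3.75 on the log2 scale. *Pdgfra* and *Mog*, which define the comparator, are not in these counts. Genes found in the same cells as these 2 are counted, so the changes of both lists may follow in part from the rule. That part was not tested.

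Of 25 ion channel and glutamate receptor genes 19 rose and 3 fell, including the AMPA receptor genes *Gria1*, *Gria2*, *Gria3* and *Gria4*, which pass glutamate signals to precursors (21.6% of all genes rose and 22.1% fell), and none of these passed the test against OPC-like cells. Of 21 sterol and myelin lipid genes 18 fell and none rose, against 22.1% of all genes that fell. Of 18 immediate early genes 13 rose and none fell, and of 18 cell cycle genes 13 rose and 1, *Pcna*, fell, against the same 21.6% and 22.1%. Among the given markers *Neu4* was at 533 and 586 CPM against 0.363 and 0.622 CPM (log2 fold change 9.73 ± 0.33, edgeR adjusted p = 2.47e-178). *Bmp4* was at 28.0 and 53.5 CPM against 0.214 and 0.565 CPM (6.26 ± 0.54). *Enpp6*, by contrast, was at 218 and 226 CPM against 350 and 294 CPM, lower in Gpr17-high cells (-0.99 ± 0.23, edgeR adjusted p = 0.000103), and was found in 75.3% and 65.7% of mature OL-like cells.

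The genes with the largest rises by the fixed rule were precursor genes such as *Susd5*, *C1ql1* and *Tmem100*, the homeobox genes *Gsx1* and *Irx1*, and the amino acid transporter *Slc7a3*. *C1ql1* was at 670 and 568 CPM in Gpr17-high cells against 0.299 and 1.07 CPM. *Gsx1* was at 46.7 and 78.1 CPM, with no UMI in the mature OL-like cells of C-ON and 0.113 CPM in those of FMC_new. The largest falls included *Cntn2*, an adhesion protein of myelinated axons, at 21.8 and 8.20 CPM against 420 and 454 CPM, and *Itgb4*, an integrin, at 12.5 and 4.82 CPM against 256 and 190 CPM. The 10 largest changes each way had the same direction in both libraries, because the rule that named them required it. Folds against levels near 0 depend on the prior count of the fit.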

How the data were processed

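The authors aligned reads with Cell Ranger (7.2.0 in the submitters' processing notes and the file headers) to mm10 and deposited raw UMI counts per gene and barcode, as whole numbers without normalization, per library. The study's methods name an earlier release of that tool. The deposited counts were used as they are, with the filters on cells that the study states. Classes were set by the UMI rules given with each result. UMIs were summed per library and class, and tested with edgeR 4.0.16 (R 4.3.3, TMM, filterByExpr, quasi-likelihood, library as a term, Benjamini-Hochberg over all genes tested). DESeq2 1.42.0 was the alternative. Shares have Clopper-Pearson and levels Poisson intervals of 95%, for counting error only. The members, gene lists and tests were chosen with earlier results of these data known. Genes were named by rule: the 4 markers, the 10 largest changes each way, and the genes of highest level or largest change in each list. *Mki67*, *9630013A20Rik*, *Mog*, *Cspg4*, *Gfap* and the members named in a list's count outside that rule were named after their values were seen, as was the split by *Pdgfra*. On simulated counts with 4-fold changes, 96.9% of changed genes were recovered against OPC-like cells and 74.5% against mature OL-like cells, and 34.0% and 32.0% at 2-fold. The simulation used the same fixed dispersion for all genes and changed only genes above a limit of summed UMIs. Its shares therefore do not cover genes of few UMIs or genes whose UMIs lie in few cells. The libraries hold 85101211 and 129113325 UMIs in 10845 and 21341 barcodes. The libraries that the study merged from earlier work are not analysed here.

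The library block comes from the design, since both classes of a library share its animals and preparation.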

Additional observations from a re-analysis of the deposited data

How the results depend on the processing

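Against OPC-like cells the 205 genes called became 327 with at least 3 *Gpr17* UMIs, 410 with *Ptprz1* in place of *Pdgfra* in the comparator, 558 with no filter on low counts, 40 with DESeq2 and 7 with no replicate block. Alternatives added after the data were seen gave 507 without the highest 6% of doublet scores and 125 with only members that have a *Pdgfra* UMI. The 15 committed genes called higher became 7 with DESeq2, 3 with no replicate block, and 2 both with only members that have a *Pdgfra* UMI and with at least 2 *Pdgfra* UMIs in both classes. The 8 cell cycle genes called lower became 14 without the highest doublet scores, 13 with no filter, 1 with DESeq2 and 0 with no replicate block. For some genes of both lists, named above, DESeq2 gave no adjusted p, so that it could not call them. The share of called genes that rose went from 53.2% to 35.7% with at least 1 *Pdgfra* UMI in the comparator, 35.4% with *Ptprz1*, 36.0% in cells of 3000 to 12000 UMIs, 27.2% with at least 2 *Pdgfra* UMIs in both classes, 67.5% with DESeq2, and 25 of 125 with only members that have a *Pdgfra* UMI. The 7 genes called with no replicate block all rose. The counts against mature OL-like cells ranged from 4184 to 6505 and moved by less than 1.5 times in all alternatives run.

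With at least 2 *Pdgfra* UMIs in both classes, log2 fold changes reversed to -1.63 for *Enpp6*, -0.082 for *Mink1*, -0.13 for *Cnp*, -0.64 for *Cldn11*, -1.06 for *Ptgds*, -0.048 for *Tcf7l2*, -0.23 for *St18*, -0.19 for *Myrf* and -0.34 for *Nfasc*. *Cldn11* reversed to -0.13 in cells of 3000 to 12000 UMIs and -0.081 in members with a *Pdgfra* UMI, *Ptgds* to -0.93 there and to -0.27 with *Ptprz1*, and *Pomc* to -1.98 with *Ptprz1*. In single libraries *Pomc* ranged from -0.67 to 1.23 and *Hbb-bs* from -0.016 to 2.96, negative in C-ON. The causes were not tested.

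The share of Gpr17-high cells, 1.32%, was 2.57% with at least 1 *Gpr17* UMI, and 0.555 to 1.72% in single libraries. *Neu4*, in 88.5% of members, was found in 41.2%, 69.7% and 79.9% after thinning to 1000, 2000 and 4000 UMIs, in 93.1% with at least 3 *Gpr17* UMIs, and in 88.2 to 89.8% in single libraries. *Bmp4*, in 13.3%, was found in 3.86% and 5.15% after thinning to 1000 and 2000 UMIs, and in 6.12 to 14.5% in single libraries. *Enpp6*, in 13.6%, was found in 8.31% at 1000 UMIs, and in 12.8 to 18.4% in single libraries.

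Leaving out doublets called by scrublet was not run, since 1 cell was called. Each class has 1 sum per library, so the C-ON values rest on 49 cells, and the simulated 2-fold changes were recovered at the shares given with the methods.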

Other observations

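*Rassf10*, which is on no list and was chosen after its values were seen, had 5 UMIs in the Gpr17-high cells of C-ON and 38 in those of FMC_new, with none in OPC-like cells of either library. Against a floor of 3 counts per library it was at least 1.99-fold and at least 15.5-fold higher.

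In windows from 250 bases before to 50 after the gene start (RefSeq, GRCm38), the letters CAGCTG, the same on both strands, occur in 16.3% of 32851 promoters, and ACAAAG on either strand in 18.7%. Of 122 promoters matched to 91 of the 109 genes that rose against OPC-like cells, 23.8% held the first and 19.7% the second, and of 76 promoters matched to 59 of the 96 genes that fell 19.7% held the first and 10.5% the second. Those of *Neu4*, *Bmp4* and *Enpp6* held neither. These are descriptions of letters in a window and were not tested.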
